A study of Mus musculus with 8 samples.

Results

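ID factors are helix-loop-helix proteins that lack a DNA-binding region, and BMP receptors are the kinases through which their genes are classically switched on. The levels of 10 such genes were followed in mouse SV-LECs, namely the ID factors Id1, Id2, Id3 and Id4, the type I receptors Bmpr1a and Bmpr1b, the type II receptors Bmpr2, Acvr2a and Acvr2b, and the pseudoreceptor Bambi. They were taken by name from the pathway, out of 55471 genes in the table. All 10 were in the table and all 10 were among the 13818 genes that had enough reads to be tested.

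SV-LEC is a mouse lymphatic endothelial line from the mesentery, immortalized with SV40 and grown in medium with serum. RNA-seq was done on 4 untreated libraries, which received no added agent, and on 4 libraries from cells given 10 ng/ml TGFβ1 for 72 h, and both groups shared the line and the immortalization. The samples are described as technical replicates, so that every p-value below covers only the spread between such samples. Each library held between 18952504 and 26386941 counted reads, and levels are given as CPM, which are counts scaled to a common TMM-normalized library size.

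In the BMP branch of the TGFβ family, a ligand brings together type II and type I receptors, and the type I kinase phosphorylates SMAD1, SMAD5 and SMAD9, which enter the nucleus with SMAD4 and bind the promoters of the ID genes. ID proteins pair with E proteins and keep them off DNA, which is known to hold back differentiation and to favour proliferation, and in endothelial cells ID1 and ID3 are known for their part in vessel growth. TGFβ itself signals mainly through TGFBR2, TGFBR1, SMAD2 and SMAD3, and in endothelial cells it can also reach SMAD1 and SMAD5 through the type I receptor ACVRL1.

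The response to the treatment was visible in genes known to be induced by TGFβ, among them Acta2, which encodes smooth muscle actin, with 264 ± 9.92 CPM in untreated and 981 ± 38.4 CPM in treated libraries (SD, n = 4 each). In edgeR's likelihood ratio test at a false discovery rate (FDR) under 0.05, 75.6% of the genes tested were called, 37.6% as higher and 38.0% as lower after TGFβ1, and this is the background for every count given here. The endothelial label was only partly matched by marker RNA. Of the pan-endothelial markers 2 of 8 had enough reads to be tested and Tie1 and Erg were at 0 in every library, Prox1, the defining lymphatic transcription factor, was at 0 in all untreated libraries, and of the lymphatic markers 2 of 6 were tested. Of these Pdpn, a membrane glycoprotein, fell from 342 ± 19.5 to 313 ± 5.25 CPM and Flt4, the receptor for VEGF-C, rose from 21.6 ± 1.23 to 29.3 ± 0.407 CPM. The pan-endothelial sum, mainly the VEGF receptor Kdr, which rose, was 11.5 to 13.1 CPM in untreated and 22.2 to 24.1 CPM in treated libraries. Markers of other cells also moved, not all in 1 direction. The 5 smooth muscle markers rose, with a sum of 837 to 899 CPM against 2103 to 2222 CPM. Of the 5 fibroblast markers tested 2 rose, Col1a1 and Pdgfrb, and 3 fell, Dcn, Pdgfra and Thy1, with a median log2 fold change of -1.07, while the sum, almost entirely Col1a1, which TGFβ is known to induce, was 3293 to 4633 CPM against 5572 to 6708 CPM. The summed leukocyte markers, almost entirely Cd68, were at 5.88 to 7.82 CPM against 14.9 to 16.9 CPM. The summed epithelial markers, mainly Krt14, which gave no call, overlapped at 34.2 to 40.7 CPM against 38.0 to 45.1 CPM, and the scarce Krt8 and Krt18 rose, from 0.273 to 1.11 and from 0.226 to 1.24 CPM. In bulk RNA a change in the share of a cell type and a change in RNA per cell cannot be told apart, and the part that these shifts have in the results below was not tested.

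The ID factors are compared with each other below, and their messages are close relatives in 1 stretch, which encodes the helix-loop-helix by which the proteins pair. The 120 coding bases of that stretch lie in the first coding exon of each gene and are printed from the GENCODE M21 models on GRCm38, 5′ to 3′ on the coding strand, with capitals for the bases that were identical in all 4 genes.
Id1, chr2:152736518-152736637, plus strand: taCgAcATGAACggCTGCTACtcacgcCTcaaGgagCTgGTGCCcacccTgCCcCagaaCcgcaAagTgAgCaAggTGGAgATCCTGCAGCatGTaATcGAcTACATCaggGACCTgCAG
Id2, chr12:25095783-25095902, minus strand: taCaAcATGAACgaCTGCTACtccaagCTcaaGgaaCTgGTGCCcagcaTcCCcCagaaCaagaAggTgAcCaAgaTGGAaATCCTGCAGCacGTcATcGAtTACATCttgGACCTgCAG
Id3, chr4:136144002-136144121, plus strand: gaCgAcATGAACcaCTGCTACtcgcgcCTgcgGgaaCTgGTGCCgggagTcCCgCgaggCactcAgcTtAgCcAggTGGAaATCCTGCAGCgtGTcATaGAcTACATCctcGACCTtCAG
Id4, chr13:48261693-48261812, plus strand: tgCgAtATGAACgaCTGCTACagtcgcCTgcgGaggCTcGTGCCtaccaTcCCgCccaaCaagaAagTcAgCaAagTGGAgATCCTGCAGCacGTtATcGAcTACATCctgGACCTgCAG

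Of the 120 bases, 69 (57.5%) were the same in all 4 genes, and pairs of genes shared 70.8% to 81.7%. The longest run shared by any pair was 17 bases, against a read length of 75 bases, and no stretch of 75 bases of any ID transcript occurred in another ID transcript. The counts of the 4 ID genes were therefore separable by sequence in this, their most similar part.

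ID factors were lower or without a call after TGFβ1. Id3 fell clearly, Id1 fell by a smaller amount that several other settings did not call, and Id2 and Id4 gave no call. Of the 4, 2 were thus called lower and none higher.

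Id3 (ENSMUSG00000007872, chr4:136143497-136145755, plus strand), an ID factor with a known role in endothelial and lymphoid cells, was at 145, 118, 112 and 106 CPM in untreated libraries 1 to 4 and at 55.1, 58.3, 67.5 and 69.2 CPM in TGFβ1 libraries 1 to 4. Every treated library was below every untreated one. The mean went from 120.1 ± 17.2 to 62.5 ± 6.88 CPM (SD, n = 4 each), and Id3 fell by 0.94 on the log2 scale (SE 0.0948, 95% interval -1.13 to -0.75, edgeR likelihood ratio test, FDR 3.18e-22). With edgeR's quasi-likelihood test the FDR was 3.67e-07, and a change of this size exceeded that of 80.9% of the genes tested.

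Id1 (ENSMUSG00000042745, chr2:152736251-152737410, plus strand), the ID factor most often used as a readout of BMP signalling, was at 58.6, 43.4, 38.1 and 33.7 CPM in untreated libraries 1 to 4 and at 27.7, 25.9, 38.6 and 42.4 CPM in TGFβ1 libraries 1 to 4. The groups overlapped, since TGFβ1 libraries 3 and 4 lay within the range of the untreated libraries. The mean was 43.5 ± 10.9 CPM without and 33.7 ± 8.08 CPM with TGFβ1, a log2 fold change of -0.37 (SE 0.171, 95% interval -0.70 to -0.03) at an FDR of 0.0420 in edgeR's likelihood ratio test. An exact two-sided permutation test of the CPM over the 8 libraries gave p = 0.2.

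The call for Id1 did not hold under edgeR's quasi-likelihood test, with an FDR of 0.0654, nor under DESeq2, with an FDR of 0.181. It was also lost without untreated library 1 (-0.19, edgeR FDR 0.226), without untreated library 2 (-0.37, edgeR FDR 0.0747), without TGFβ1 library 1 (-0.29, edgeR FDR 0.144) or without TGFβ1 library 2 (-0.26, edgeR FDR 0.156). The direction was the same in each of these fits.

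Id1 and Id3 spread between libraries of the same group far beyond counting error. For Id1 the coefficient of variation was 25.0% in untreated and 24.0% in treated libraries, where counting alone would give 3.20% and 3.70%. For Id3 it was 14.3% and 11.0%, where counting alone would give 1.93% and 2.73%. The biological coefficient of variation that edgeR fitted for Id1, 16.4%, was above that of 98.3% of the genes tested.

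The order of the libraries was compared with a property of each, its GC slope. This is the slope of the log2 level on GC content across genes, relative to the mean of the library's own group. In untreated libraries 1 to 4 the slope was 0.0667, 0.00716, -0.0167 and -0.0572 log2 units per 10 percentage points of GC, and in TGFβ1 libraries 1 to 4 it was -0.0272, -0.0459, 0.0285 and 0.0446. The order of Id1 levels was the order of the slopes in both groups, and the order of Id3 levels was so in the untreated group, while in the treated group the lowest pair of libraries changed places. Both transcripts are rich in G and C, with 54.7% for Id1 and 55.6% for Id3, above 76.7% and 81.0% of the genes tested. Of the other members, Id4, at 42.6% GC, had this order in the untreated group, and Acvr2b, at 54.4%, had it in neither group. Both had few reads, 27 to 47 and 15 to 58 in a library, so counting error can set much of their order. Bmpr1a, at 41.3% GC with far more reads, ran in reverse order in the untreated group and in neither order in the treated one. Only the order was compared, and a link between the slope and the spread was not tested.

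A fit with this within-group slope as a covariate, added after seeing the data, gave -0.36 for Id1 (edgeR likelihood ratio test, FDR 1.05e-13, and quasi-likelihood test, FDR 2.84e-07) and -0.94 for Id3 (FDR 2.65e-110 and 5.70e-15). The covariate was itself read from the same libraries, so these FDRs do not rest on independent information. The sizes of the changes were almost the same as without it. Since the slope was centred within each group, it could hardly move them, and their sameness says nothing about GC content. Between the groups the slopes against the mean of all libraries did not overlap, at -0.141 to -0.0169 in untreated and 0.0376 to 0.128 in treated libraries. This difference and the treatment cannot be told apart.

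**Figure D1:**
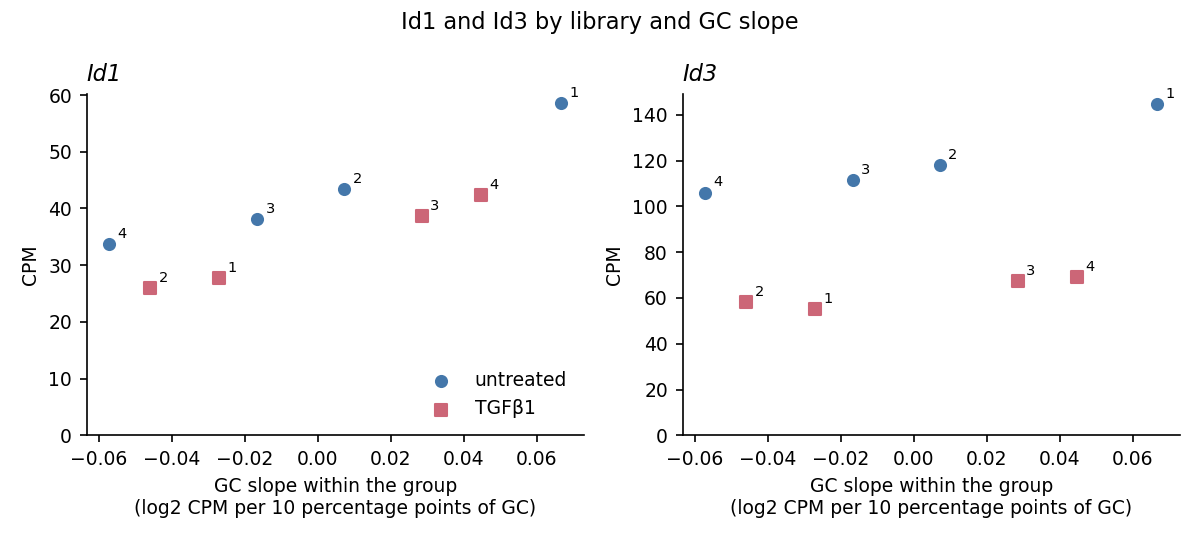
CPM of Id1 (left) and Id3 (right) against the GC slope of each library relative to its own group (log2 CPM per 10 percentage points of GC), with circles for untreated and squares for TGFβ1 libraries and the library number beside each point. Id1 spans 33.7 to 58.6 CPM in untreated and 25.9 to 42.4 CPM in treated libraries and is higher where the slope is higher, while for Id3 every treated library lies below every untreated one.

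Id2 (ENSMUSG00000020644, chr12:25093799-25097140, minus strand), known for its role in lymphoid and neural differentiation, was at 7.13, 6.91, 7.42 and 7.76 CPM in untreated libraries 1 to 4 and at 6.06, 6.91, 8.12 and 5.32 CPM in TGFβ1 libraries 1 to 4. The treated libraries lay on both sides of the untreated ones and spread more widely, with means of 7.31 ± 0.368 and 6.60 ± 1.20 CPM. The log2 fold change was -0.15 (95% interval -0.40 to 0.10) with an edgeR FDR of 0.279. The value moved with single libraries in both directions, to -0.27 without TGFβ1 library 3, the highest of the 8 (edgeR FDR 0.0431), and to -0.048 without TGFβ1 library 4, the lowest (edgeR FDR 0.723).

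Id4 (ENSMUSG00000021379, chr13:48261228-48266026, plus strand), best known from neural and mammary cells, had 27 to 47 reads in a library. It was at 1.98, 1.62, 1.48 and 1.37 CPM in untreated libraries 1 to 4 and at 1.51, 1.70, 1.57 and 1.82 CPM in TGFβ1 libraries 1 to 4, and the treated values lay within the untreated range. The log2 fold change was 0.05 (95% interval -0.30 to 0.40, edgeR FDR 0.812) and changed sign, to -0.018, when libraries were scaled by their total counts. At this depth a change within that interval was not detectable.

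**Figure D2:**
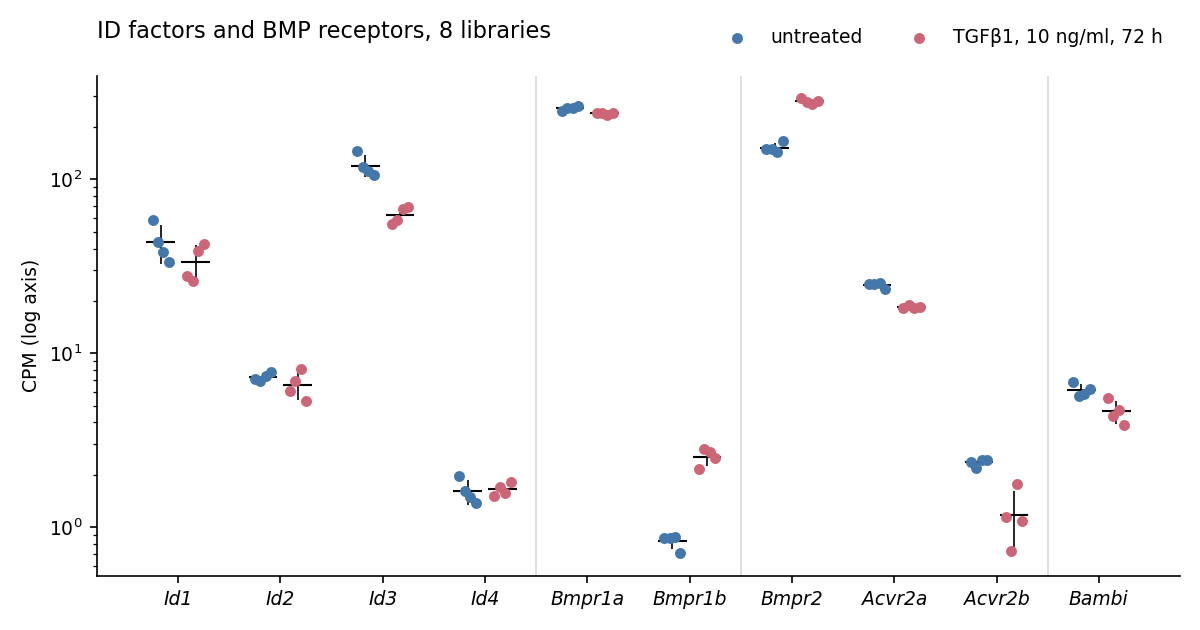
CPM (log axis) of the 10 genes in each of the 8 libraries, blue for untreated and red for TGFβ1, with a horizontal line at the mean and a vertical line of 1 SD to either side. The groups are apart for Id3, Bmpr1a, Bmpr1b, Bmpr2, Acvr2a, Acvr2b and Bambi and overlap for Id1, Id2 and Id4.

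The BMP receptors among the 10 genes changed in both directions. Bmpr2 and Bmpr1b rose, Acvr2a, Acvr2b and Bambi fell, and Bmpr1a fell by a small amount. Among all 10 genes the libraries of the groups did not overlap in 7, with 2 higher and 5 lower after TGFβ1, where 69.8% of the genes tested had groups that did not overlap, 34.7% higher and 35.1% lower. For each of the 7 the exact two-sided permutation test of the CPM gave p = 0.0286, the smallest that 4 against 4 libraries allow. Groups that do not overlap always give this value, so it adds nothing to the count of such genes.

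Bmpr1a (ENSMUSG00000021796, chr14:34410734-34503341, minus strand) encodes the widely expressed BMP type I receptor ALK3 and had the highest read level of the 10 genes in the untreated libraries. It was at 247, 257, 257 and 266 CPM in untreated libraries 1 to 4 and at 241, 242, 235 and 240.03 CPM in TGFβ1 libraries 1 to 4. The groups did not overlap but lay close together, with means of 257 ± 7.79 and 239 ± 3.13 CPM and a log2 fold change of -0.10 (SE 0.0387, edgeR likelihood ratio test, FDR 0.0140). Without TGFβ1 library 3 the value was -0.092 with an edgeR FDR of 0.0509. Its transcripts share 216 of 6424 stretches of 75 bases (3.36%) with Gm17110 on the opposite strand, and whether the counting used strand is not given in the sources used here.

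Bmpr1b (ENSMUSG00000052430, chr3:141837136-142169425, minus strand), the type I receptor ALK6 with known roles in cartilage and ovary, was scarce, at 14 to 23 reads in an untreated and 40 to 64 reads in a treated library. It was at 0.867, 0.864, 0.873 and 0.710 CPM in untreated libraries 1 to 4 and at 2.16, 2.82, 2.71 and 2.48 CPM in TGFβ1 libraries 1 to 4. Every treated library was above every untreated one, and the means of 0.829 ± 0.0792 and 2.54 ± 0.290 CPM stood in a ratio of 3.07. The log2 fold change of 1.61 (SE 0.200, 95% interval 1.22 to 2.00, edgeR likelihood ratio test, FDR 2.80e-17) was greater in size than that of any other of the 10 genes.

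Bmpr2 (ENSMUSG00000067336, chr1:59763400-59879014, plus strand) encodes the type II receptor dedicated to BMPs, whose loss is known from hereditary pulmonary arterial hypertension. It was at 149.9, 150.4, 143 and 166 CPM in untreated libraries 1 to 4 and at 292, 277, 272 and 283 CPM in TGFβ1 libraries 1 to 4. The groups were far apart relative to their spread, at 152 ± 9.49 and 281 ± 8.58 CPM, a ratio of 1.85. The log2 fold change was 0.88 (SE 0.0486, edgeR likelihood ratio test, FDR 6.82e-72).

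Acvr2a (ENSMUSG00000052155, chr2:48814109-48903269, plus strand) encodes a type II receptor that takes up activins as well as BMPs. It was at 24.9, 24.9, 25.4 and 23.4 CPM in untreated libraries 1 to 4 and at 18.1, 19.0, 18.3 and 18.5 CPM in TGFβ1 libraries 1 to 4. The groups did not overlap, and Acvr2a fell by 0.42 on the log2 scale (SE 0.0600, edgeR likelihood ratio test, FDR 7.65e-12), from 24.7 ± 0.846 to 18.5 ± 0.381 CPM. It shares 372 of 5685 stretches of 75 bases (6.54%) with Orc4 on the opposite strand.

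Acvr2b (ENSMUSG00000061393, chr9:119402118-119434995, plus strand), the second activin type II receptor, was also scarce, at 48 to 58 reads in an untreated and 15 to 36 reads in a treated library. It was at 2.36, 2.18, 2.45 and 2.43 CPM in untreated libraries 1 to 4 and at 1.14, 0.730, 1.77 and 1.09 CPM in TGFβ1 libraries 1 to 4. All treated libraries were below all untreated ones, with a wide spread among them, and the means were 2.35 ± 0.123 and 1.18 ± 0.433 CPM. Acvr2b fell by 0.99 on the log2 scale (SE 0.200, edgeR likelihood ratio test, FDR 7.43e-07). Its transcripts have a GC content of 54.4%. Its levels did not have the order of the GC slopes in either group, and with so few reads counting error can set much of that order.

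Bambi (ENSMUSG00000024232, chr18:3507923-3516404, plus strand) encodes a membrane protein built like a type I receptor but without the kinase, which holds back BMP and TGFβ signalling and is itself a known target of both. It was at 6.84, 5.67, 5.85 and 6.24 CPM in untreated libraries 1 to 4 and at 5.52, 4.38, 4.72 and 3.88 CPM in TGFβ1 libraries 1 to 4. The groups came close, at 5.67 and 5.52 CPM, without overlapping. Bambi fell by 0.42 on the log2 scale (SE 0.126, edgeR likelihood ratio test, FDR 0.00146), from 6.15 ± 0.518 to 4.63 ± 0.688 CPM.

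Of the 10 genes 8 were called, 2 higher and 6 lower, against 75.6% of all genes tested, 37.6% higher and 38.0% lower. The share called was thus near the background, and what set the genes apart from each other was direction and size. Their median log2 fold change was -0.26, and that of all genes tested was -0.01. With the quasi-likelihood test 7 of the 10 were called, also against a background of 75.6%, and the gene lost was Id1.

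**Figure D3:**
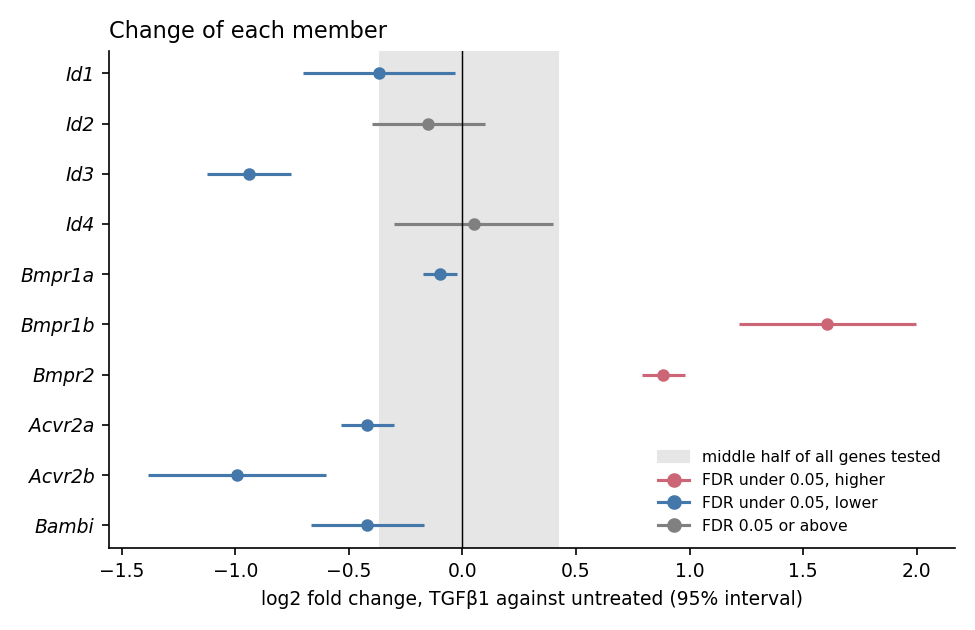
Log2 fold change (TGFβ1 against untreated) of the 10 genes with 95% intervals, red for higher and blue for lower at an FDR under 0.05 and grey for no call, over a grey band that marks the interquartile range of all genes tested, from -0.36 to 0.42. Bmpr1b at 1.61 and Bmpr2 at 0.88 lie above the band, Id3, Acvr2b, Acvr2a and Bambi lie below it, and Id1 at -0.37 lies at its edge with an interval that nearly reaches 0.

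Levels of different genes were compared per kilobase of exon (CPM per kb), a scale on which only the order and rough size are of use, since the isoforms in these cells are unknown. In untreated libraries Id3 led with 67.0 ± 9.61 CPM per kb, followed by Bmpr1a at 40.4 ± 1.23 and Id1 at 37.5 ± 9.37 CPM per kb, and the ranges of Bmpr1a and Id1 overlapped. Then came Bmpr2 at 8.47 ± 0.528, Acvr2a at 4.34 ± 0.149 and Id2 at 3.00 ± 0.151 CPM per kb, and last Bambi at 1.21 ± 0.102, Acvr2b at 0.599 ± 0.0314, Id4 at 0.419 ± 0.0683 and Bmpr1b at 0.139 ± 0.0133 CPM per kb. Among these no other neighbours overlapped.

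After TGFβ1 the leading genes were no longer apart. Bmpr1a ranged from 37.0 to 38.1, Id3 from 30.8 to 38.7 and Id1 from 22.4 to 36.5 CPM per kb, so that the ranges of Bmpr1a and Id3 and those of Id3 and Id1 overlapped. Bmpr2 followed at a mean of 15.6 CPM per kb. At the lower end Id4, Bmpr1b and Acvr2b had means of 0.430, 0.427 and 0.301 CPM per kb with overlapping ranges, and Acvr2a and Id2, at 3.19 to 3.34 and 2.18 to 3.33 CPM per kb, overlapped as well. When the longest coding transcript was used as the length, the untreated order was the same, and in the treated libraries Id3, at a mean of 48.9 CPM per kb, stood above Bmpr1a at 40.2.

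The make-up of each group of genes also shifted. The ID factors together came to 91.7 to 135 CPM per kb in untreated and 57.5 to 77.9 CPM per kb in treated libraries. Id3 made up 62.4 ± 1.94% of this sum without and 52.4 ± 2.90% with TGFβ1 (SD, n = 4 each), while Id1 made up 34.4 ± 2.50% and 42.9 ± 3.70%. Id2 and Id4 together stayed a small part in both groups, at 2.85% and 0.388% without and 4.11% and 0.650% with TGFβ1.

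Within a library the ratio of Id3 to Id1 does not depend on the library's scaling. It was 2.47, 2.72, 2.93 and 3.15 in untreated libraries 1 to 4 and 1.99, 2.25, 1.75 and 1.63 in TGFβ1 libraries 1 to 4, from CPM. All treated ratios were below all untreated ones, although the levels of Id1 overlapped. Over all libraries the ratio fell step by step as the GC slope against the mean of all libraries rose. It went from 3.15 at a slope of -0.141 in untreated library 4 to 1.63 at 0.128 in TGFβ1 library 4. Between the groups this slope and the treatment cannot be told apart, and a link of the ratio to the slope was not tested.

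Among the BMP type I receptors, Bmpr1a made up 82.7 ± 1.23% of the summed level per kb without and 71.7 ± 0.942% with TGFβ1. The share of Acvr1, which encodes the type I receptor ALK2, went from 14.7 ± 0.981% to 21.0 ± 0.271%, and that of Acvrl1, the endothelial receptor ALK1, went from 2.29 ± 0.248% to 6.49 ± 0.779%. Bmpr1b, which rose, was still at only 0.285% and 0.812% of the sum. The sum itself was 48.8 ± 0.761 and 52.5 ± 0.766 CPM per kb.

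Among the type II receptors Bmpr2 went from 63.1 ± 2.09% to 81.5 ± 0.773% of the sum, Acvr2a from 32.4 ± 2.00% to 16.9 ± 0.604% and Acvr2b from 4.47 ± 0.247% to 1.57 ± 0.596%. The sum rose from 13.4 ± 0.385 to 19.2 ± 0.410 CPM per kb. The ratio of Bmpr2 to Bmpr1a in CPM was 0.608, 0.585, 0.557 and 0.624 in untreated libraries 1 to 4 and 1.21, 1.15, 1.16 and 1.18 in TGFβ1 libraries 1 to 4, so that Bmpr2 had fewer reads than Bmpr1a in every untreated library and more in every treated one. Shares and ratios are described without a test.

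**Figure D4:**
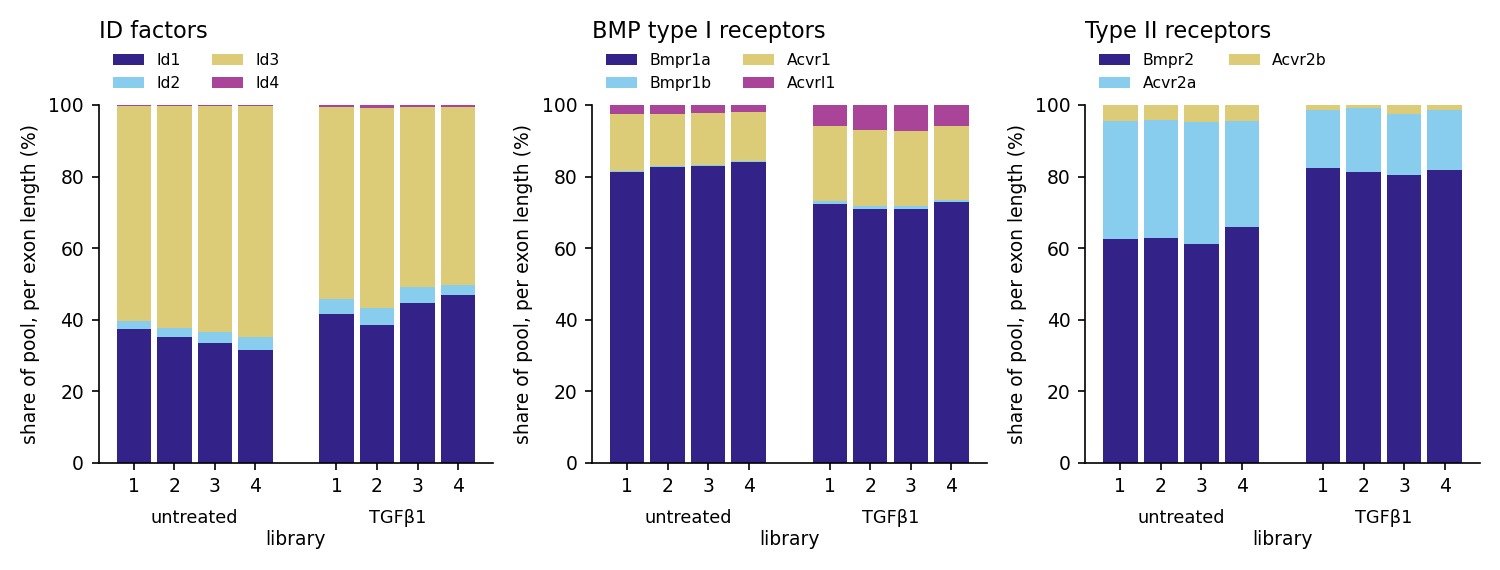
Share (%, per kb of exon) of each gene in the summed level of the ID factors (left), the BMP type I receptors (middle) and the type II receptors (right), with 1 stacked bar per library and untreated libraries to the left of TGFβ1 libraries in each panel. The mean share of Id3 is 62.4% without and 52.4% with TGFβ1, that of Bmpr1a 82.7% and 71.7%, and that of Bmpr2 63.1% and 81.5%.

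The other genes of the pathway were taken as lists by role. Among the other receptors of the TGFβ family 4 of 5 tested were higher and 1 was lower. Acvrl1 rose from 4.76 ± 0.452 to 14.5 ± 1.86 CPM, the same log2 fold change of 1.61 as Bmpr1b at a higher read level, and Acvr1 rose by 0.62 and Tgfbr2, the type II receptor for TGFβ, by 0.54 on the log2 scale. Tgfbr1 was at 0.16, a call that was lost when libraries were scaled by total counts, and Acvr1b, an activin type I receptor, fell by 0.67 on the log2 scale beside Acvr2a and Acvr2b.

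Of the co-receptors 2 of 5 tested were higher and 3 lower. Eng, the endothelial co-receptor endoglin, rose by 1.21 on the log2 scale, from 62.0 ± 3.69 to 143 ± 3.81 CPM. Rgma, a BMP co-receptor, fell by 0.94 on the log2 scale, Tgfbr3 by 0.23 and Neo1, which binds RGM proteins, by 0.22, and Rgmb was at 0.16, a call lost under total count scaling.

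Ligands of the receptors changed in both directions, with 6 of 9 tested higher, 2 lower and Inha without a call. Gdf6, the BMP with the most reads in these cells, rose from 124 ± 10.4 to 249 ± 23.5 CPM, and the activin subunits Inhba and Inhbb rose by 0.59 and 2.04 on the log2 scale. Bmp4, a ligand of the BMP type I receptors, fell from 26.8 ± 3.10 to 10.5 ± 0.822 CPM, and the other ligand that fell was Bmp3.

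Of the BMP and activin antagonists 5 of 11 tested were higher, 5 lower and Chrd without a call. Those that rose included Fst, the activin-binding follistatin, from 40.5 ± 0.827 to 155 ± 6.16 CPM, and Bmper, a BMP-binding protein of endothelial cells, by 0.87 on the log2 scale. Fstl3 and Nbl1 also rose, and Twsg1 was at 0.12, without a call under total count scaling. Those that fell were Grem1, from 22.6 ± 2.40 to 4.60 ± 0.592 CPM, and Nog, Chrdl1, Sostdc1 and Crim1, of which Grem1, Nog and Chrdl1 encode proteins that bind BMPs and keep them from their receptors.

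Downstream of the receptors, 6 of 11 SMADs and regulators were higher, 4 lower and Smad1 without a call. Smad1, which relays BMP signals, was at 49.8 ± 0.923 and 51.3 ± 1.45 CPM (log2 fold change 0.04, edgeR FDR 0.450). Smad9, the third of the BMP SMADs, fell by 1.73 on the log2 scale and Smad4 by 0.43. Smurf1, a ubiquitin ligase that marks BMP SMADs and receptors for breakdown, rose from 133 ± 4.04 to 281 ± 10.5 CPM, while its relative Smurf2 fell by 0.19 on the log2 scale. Ski, a repressor that binds SMADs, rose by 0.26.

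Of 9 further genes known as targets of BMP SMADs, 6 were tested, and 4 of these fell as Id3 did and 2 rose. Smad6, an inhibitory SMAD, fell from 14.9 ± 4.10 to 7.22 ± 1.46 CPM, and the transcription factors Atoh8 and Msx1 fell by 0.99 and 1.29 on the log2 scale, with Smad9 as the fourth. Levels of Smad6 and Msx1 had the order of the GC slopes in both groups, as those of Id1 did, and levels of Atoh8 had it in the untreated group. The biological coefficient of variation fitted for Smad6 was 16.9%. Smad7, an inhibitory SMAD that is also a target of TGFβ SMADs, rose by 0.89 on the log2 scale. Hey2, a repressor that also answers to Notch, had 3 to 7 reads in an untreated and 32 to 44 in a treated library. Of the 6 tested, 3 (Smad6, Smad7 and Smad9) are also in the list of SMADs above.

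Among the partners of ID proteins 4 of 6 tested were lower and 2 higher. The E proteins Tcf3, Tcf12 and Tcf4 fell by 0.41, 0.13 and 0.23 on the log2 scale, with Tcf3 going from 167 ± 22.2 to 126 ± 16.3 CPM. Levels of Tcf3 also had the order of the GC slopes in both groups. Ets1 rose by 0.47 and Hes1 by 1.71 on the log2 scale, and Ets2 fell by 0.12.

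**Figure D5:**
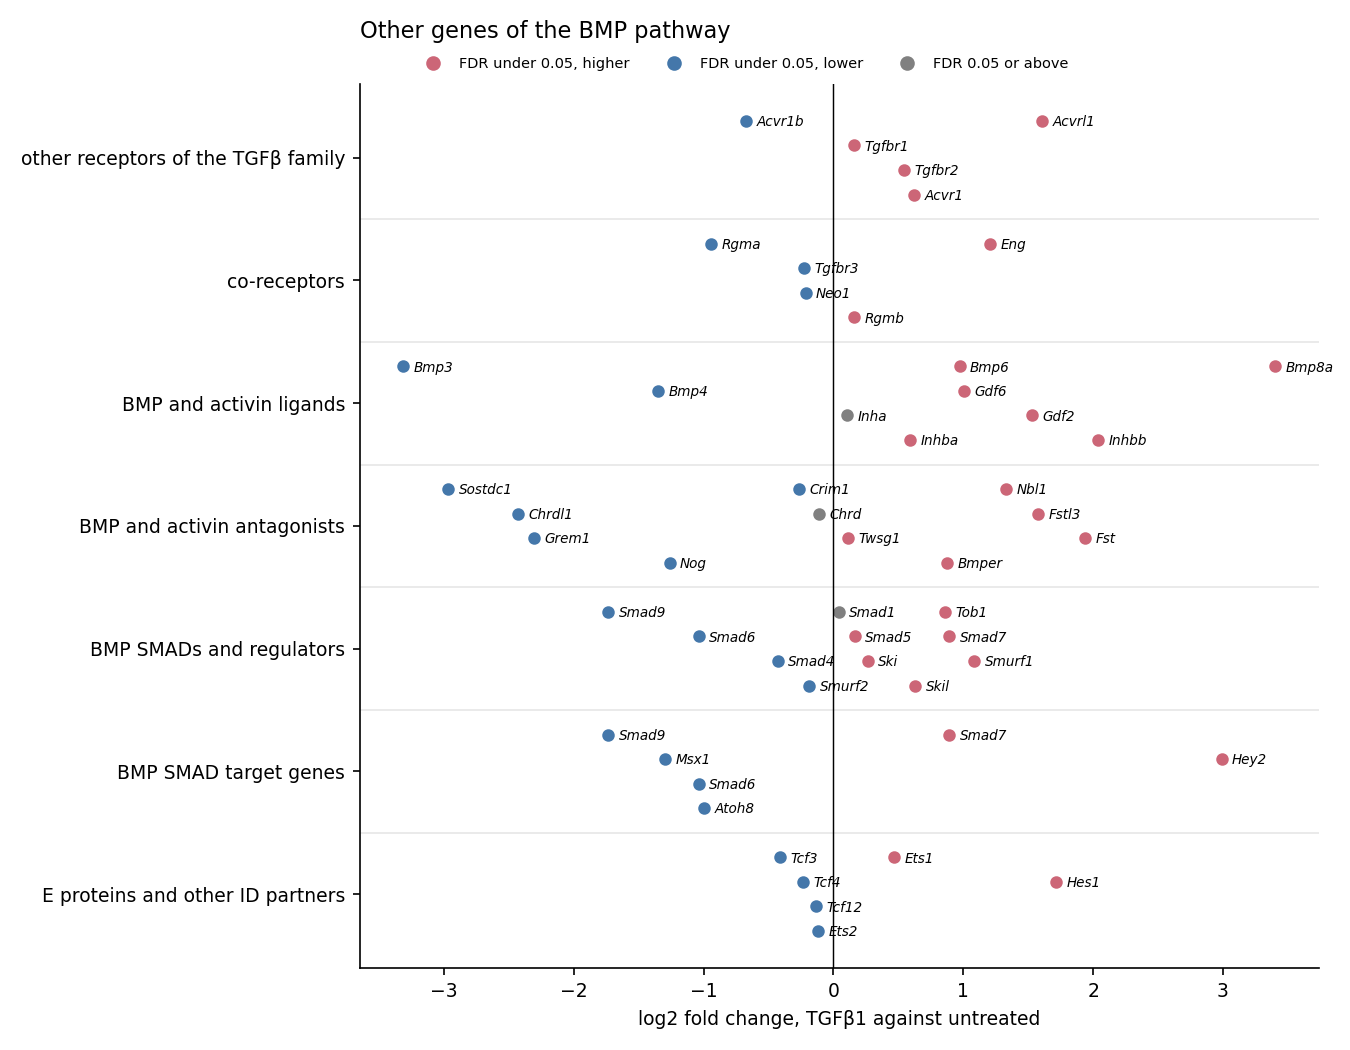
Log2 fold change (TGFβ1 against untreated) of every tested gene in 7 lists of the BMP pathway, 1 row of points per list, red for higher and blue for lower at an FDR under 0.05 and grey for no call. The ligands and the antagonists lie on both sides of 0, such as Bmp4 at -1.35 and Gdf6 at 1.00, and 4 of the 6 tested BMP SMAD targets lie to the left of 0.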

How the data were processed

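Total RNA of SV-LECs was made into stranded poly(A) libraries and sequenced as single 75-base reads. The authors deposited raw counts of reads per gene, and the submitters' processing notes list bcl2fastq 2.20.0.422, STAR 2.7.3a, featureCounts 1.5.1 and GRCm38. The annotation release and the strand setting of the counting are not given in the sources used here.

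Libraries were grouped by their labels. The groups were compared with edgeR 4.0.16 under R 4.3.3 by filterByExpr, TMM and the likelihood ratio test named in the study, with Benjamini-Hochberg FDR over 13818 genes and a threshold of 0.05. The steps were tested on simulated data. The quasi-likelihood test, DESeq2 1.42.0, other filters and scalings, a replicate block and leaving out each library served as alternatives, and fits with the GC slope were added after seeing the data. A count of 3 in a library corresponds to 0.113 to 0.162 CPM.

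Gene positions, exon lengths, GC content and the printed sequences came from GENCODE M21 on GRCm38, and 13808 of the tested genes (99.9%) had a GC value. The 10 genes and the lists were chosen with earlier results of these data known. The text names all 10 genes and, within a rule, others: from each list at most 4 genes by mean CPM plus those that account for a count of 5 or fewer, and for each ID factor its 2 nearest genes by root mean square distance of centred log2 CPM. Not every gene the rule allows is named, and a list gene is not reported here.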

Additional observations from a re-analysis of the deposited data

Results flagged for a closer look

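In the untreated group Bmpr1b had 1 library far from the others. Untreated library 4 was at 0.710 CPM, with 14 reads, while the other untreated libraries were at 0.864 to 0.873 CPM, with 18 to 23 reads, so that its gap to the nearest of them was 0.942 of the group's whole range, above the Dixon limit of 0.829 for 4 samples. The coefficient of variation of the 4 libraries was 9.56%, less than the 23.1% that counting alone would give, so the group as a whole spread less than counting error and the other 3 values lay close together. A total of 20 groups of 4 libraries were checked (10 genes in 2 groups), and chance flags about 1 in 20. The change of Bmpr1b was 1.55 to 1.67 on the log2 scale when each library was left out in turn.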

How the results depend on the processing

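Under 19 alternatives, 2 of the 10 genes were called higher each time and 5 or 6 lower, and the log2 fold changes of Id3, Bmpr1b, Bmpr2, Acvr2a, Acvr2b and Bambi kept their direction and call in all of them. Id1 lost its call with the quasi-likelihood test (-0.36), DESeq2 (-0.36), a minimum of 1 CPM in 4 libraries (-0.35, edgeR FDR 0.0519), a replicate block (-0.37, edgeR FDR 0.0919) and the replicate block with the quasi-likelihood test (-0.36), and it was -0.50 to -0.19 with single libraries left out. The range with single libraries left out was -0.12 to -0.085 for Bmpr1a, -0.27 to -0.048 for Id2 and -0.013 to 0.15 for Id4, where Id4 was negative without untreated library 4 (-0.013) or TGFβ1 library 4 (-0.0093) and under total count scaling (-0.018). Pairing by replicate number was not seen. The deviations of libraries with the same number correlated at -0.193 to -0.0336, and no untreated library correlated best with its own number. This check cannot exclude a pairing, since the GC slopes within the groups ran in largely opposite order over the replicate numbers. The block changed no other call among the 10 genes. Over all genes 4627 to 6385 were called higher and 4941 to 5899 lower, beside 5198 and 5251. Total count scaling moved the median of all genes by -0.07 and left 1 co-receptor higher in place of 2. It also left 4 antagonists higher in place of 5, 5 SMADs and regulators in place of 6, and 3 other receptors of the TGFβ family in place of 4. Depth limits Id4, Bmpr1b and Acvr2b, with 14 to 64 reads in a library. The intervals of the log2 fold changes cover counting error and the spread that edgeR fitted between these samples, and no wider spread. The causes of these shifts were not tested.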

Other observations

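The inhibitors of cyclin-dependent kinases, some of which are known to be regulated by E proteins or SMADs, were not described above. Of 6 tested, 2 were higher, 3 lower and 1 without a call. Cdkn1a, which encodes p21, rose from 746 ± 48.3 to 1638 ± 56.0 CPM (SD, n = 4 each), a log2 fold change of 1.14, and Cdkn2b, which encodes p15, a known target of TGFβ, rose by 0.53 on the log2 scale. Cdkn2c and Cdkn1b, which encode p18 and p27, fell by 1.61 and 0.83 on the log2 scale, with Cdkn2c going from 94.3 ± 8.98 to 30.9 ± 3.98 CPM, and Cdkn1c, which encodes p57, fell by 0.93. Cdkn2a was at 389 ± 79.3 and 374 ± 82.2 CPM (log2 fold change -0.05, edgeR likelihood ratio test, FDR 0.744). Its spread within each group was wide, as that of Id1 was.

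The genes whose pattern over the 8 libraries was most like that of an ID factor were found by the root mean square distance of log2 CPM, centred on each gene's mean. For Id3 they were Pim3, at a distance of 0.0502 log2 units, and Srebf2, at 0.0806, with log2 fold changes of -0.97 and -1.01. For Id1 they were Rnaseh2c at 0.0829 and Ccdc124 at 0.0895, with log2 fold changes of -0.47 and -0.37. Id2 was nearest to Nap1l3 at 0.0776 and Lrrc61 at 0.0830, and Id4 to Zfp574 at 0.0633 and Pex10 at 0.0641. The distances are descriptions of these 8 libraries.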
